A study of Mus musculus with 12 samples.

Results

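Internal transcribed spacer 1 (ITS1) is the stretch of the mouse ribosomal RNA (rRNA) precursor that lies between 18S and 5.8S rRNA. In the coordinates of the deposited depth table, which run from 1 to 13400 along 1 reference sequence, ITS1 was taken as positions 5883 to 6851, from the first nucleotide after 18S up to 25 nt before the start of 5.8S. The members are these 969 positions, 7.23% of the 13400, each with a read depth in all 12 libraries. The study knocked down Eif3m, whose product eIF3m belongs to the eIF3 complex that helps start translation, and sequenced rRNA without depleting it. Hepa1c1c7 cells, a mouse hepatoma line, were given a control siRNA (scrambled luciferase) or Eif3m siRNA at 10 uM and taken after 3 days. FVB/N mice of 6 to 8 weeks were given the same kinds of siRNA in lipid nanoparticles by tail vein at 0.5 mg/kg, and livers were taken after 13 days. Each of the 4 groups has 3 libraries, and all libraries were made with the rRNA removal step of the kit left out. RNA from the cells was nuclear and RNA from the livers came from whole frozen tissue, so the cells and the livers differ in what they are, in the RNA taken, in dose and in time. The liver holds many cell types, and fewer cells of a type cannot be told apart from less RNA per cell. No messenger RNA was measured, so the level of Eif3m is not known from these data, and the labels do not say whether replicates are separate cultures. The p-values measure the spread between these samples.

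RNA polymerase I makes 18S, 5.8S and 28S rRNA as a single precursor, with external spacers at both ends (5′ETS and 3′ETS) and internal spacers between the mature parts (ITS1 and ITS2). Cleavage inside ITS1 divides the precursor into the branch that becomes the small ribosomal subunit, which carries 18S, and the branch that becomes the large subunit, which carries 5.8S and 28S. The 5′ piece of ITS1 is then trimmed from the end of 18S precursors, the 3′ piece is removed to form the start of 5.8S, and the excised RNA is degraded. Depth over ITS1 therefore counts RNA that is uncleaved, partly trimmed or not yet degraded, and a depth table does not separate these forms.

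Mean depth over all positions was 10462 to 15537 reads per position in the 6 cell libraries and 26971 to 46799 in the 6 livers. Over ITS1 the mean depth was 480, 856 and 719 reads per position in control cells 1 to 3, and 2726, 1691 and 2014 reads in the cells given Eif3m siRNA. Control livers 1 to 3 had 79.2, 59.7 and 87.4 reads per position over ITS1, and the livers given Eif3m siRNA had 195, 139 and 144. Livers therefore gave far fewer reads over ITS1 despite their deeper libraries, and single positions went down to 4 reads in control liver 2. All ITS1 positions held at least that many reads. In the shape of the profile, the liver controls were less alike than any other group. The correlation of log2 depth over the 969 positions was 0.986 to 0.996 among the 6 cell libraries and 0.870 to 0.953 among the control livers, as a description over neighbouring positions that share reads. Control liver 3 correlated with the Eif3m siRNA livers at 0.973 to 0.976, more closely than with the other control livers, whereas control liver 2 correlated with them at 0.840 to 0.909. The main liver results are therefore also given without these libraries.

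The first comparison asked how much of the sequenced rRNA lay in ITS1. In both cells and liver, ITS1 took a larger part of the depth after Eif3m siRNA than after control siRNA, 2.72-fold in cells and 1.69-fold in liver. In control cells 0.332%, 0.463% and 0.407% of the summed depth lay in ITS1, a mean of 0.400% ± 0.066 (SD, n = 3). In Eif3m siRNA cells the shares were 1.27%, 0.896% and 1.11%, a mean of 1.09% ± 0.19 (SD, n = 3). The lowest of these stood well above the highest control. In control livers the shares were 0.0161%, 0.0160% and 0.0142% (0.0154% ± 0.0011, SD, n = 3), and in Eif3m siRNA livers they were 0.0301%, 0.0239% and 0.0245% (0.0262% ± 0.0034, SD, n = 3). Here too the groups did not overlap, and Eif3m siRNA liver 1 was the highest.

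The change was 1.44 ± 0.20 (log2, SE) in cells and 0.76 ± 0.12 in liver, each with p = 0.1 in an exact two-sided permutation test, the smallest that 3 against 3 allows. Over both systems, with labels exchanged within each, it was 1.10 ± 0.12 with an exact permutation p of 0.005, the smallest that 400 assignments allow, and 0.01 after Benjamini-Hochberg adjustment over 4 quantities. Without control liver 2 the liver change was 0.78, and without control liver 3 it was 0.70. A share of summed depth falls or rises with the mature regions that fill the denominator, so ITS1 was also set against 18S alone. Its mean depth was 1.95% ± 0.30 of that of 18S in control cells and 5.65% ± 1.05 in Eif3m siRNA cells, against 0.0812% ± 0.0063 and 0.122% ± 0.016 in the livers (SD, n = 3 each). The log2 change relative to 18S was 1.53 ± 0.21 in cells and 0.58 ± 0.12 in liver, and relative to 28S it was 1.53 ± 0.22 and 0.87 ± 0.12. In liver, relative to 18S it was 0.62 without control liver 2 and 0.51 without control liver 3.

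**Figure D1:**
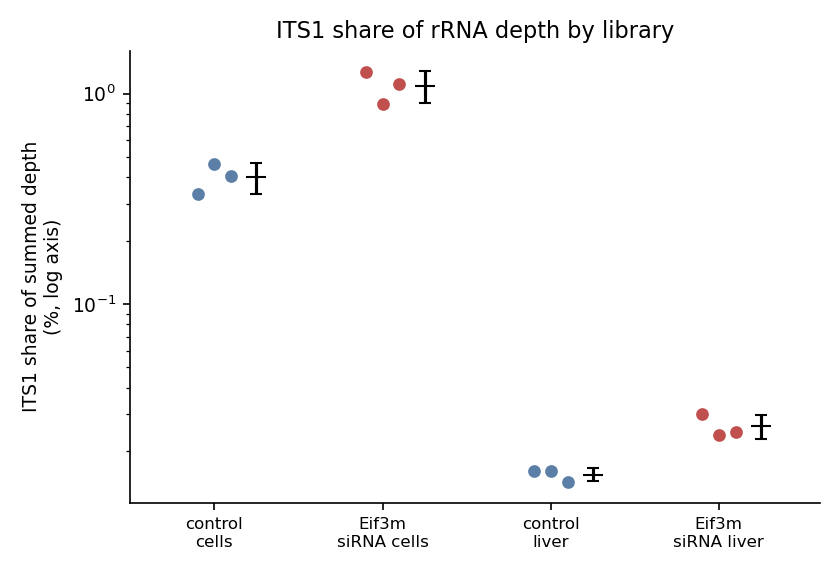
Share of each library's summed depth that lies in ITS1 (percent, log axis), by group; points are libraries and bars show the mean ± SD of 3. Eif3m siRNA libraries lie above the controls in both systems, at 1.09% against 0.400% in cells and 0.0262% against 0.0154% in liver.

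The size of the change differed between the systems. In limma on the log2 shares of the 7 regions of the precursor, the change in liver minus that in cells was −0.69 ± 0.22 for ITS1 (adjusted p = 0.018). It stayed between −0.82 and −0.56 when any 1 library was left out, each time past the threshold of 0.05. Since the cells gave nuclear RNA and the livers RNA of the whole tissue, the part of these conditions in the difference cannot be told apart from that of the cell source. The baseline also differed, with an ITS1 share 25.7-fold higher in control cells than in control livers.

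Along its length, ITS1 was unevenly covered, in a relief that all 12 libraries shared in outline. Between 33.8% and 42.3% of its positions lay above the library's own ITS1 mean. Depth fell by 1.28 (log2, mean of all libraries, between the 20 nt on either side) at position 6003 and reached its lowest point near position 6015, 133 nt from the end of 18S. There the depth was 0.200 ± 0.023 of the ITS1 mean in control cells and 0.185 ± 0.014 in Eif3m siRNA cells. In the livers the lowest points were at 6014 and 6015, at 0.181 ± 0.110 and 0.209 ± 0.031 of the ITS1 mean. From there depth rose to a plateau with sharp edges at 6408 and 6483, and to another rise at 6816 that led to the 3′ end. Of the 19 segments of 51 nt that make up ITS1, segment 4 (6036 to 6086) was the shallowest over all libraries, at 0.321 of the ITS1 mean, and segment 16 (6648 to 6698) the deepest, at 1.84. In the livers alone segment 12 (6444 to 6494) was deeper, at 1.84 ± 0.03 times the ITS1 mean in controls and 1.97 ± 0.12 times after Eif3m siRNA.

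The place of the maximum differed between cells and liver. In all 6 cell libraries the deepest position was between 6682 and 6684, around 801 nt into ITS1, where depth was 2.33 ± 0.04 times the ITS1 mean in control cells and 2.36 ± 0.03 times in Eif3m siRNA cells. In the livers the deepest position was the first nucleotide of ITS1, with 3.70 ± 0.32 times the mean in controls and 4.51 ± 0.19 times after Eif3m siRNA. This narrow shoulder of the very deep 18S was back to 0.959 and 1.11 times the mean at position 5885. Leaving out the first 2 nt, the liver maximum lay at 6433 to 6439 in 5 of 6 livers and at 6820 in control liver 2. Segment 16, the site of the maximum in cells, stood at 2.21 ± 0.02 times the ITS1 mean in control cells, 1.59 ± 0.25 in control livers and 1.35 ± 0.09 in livers given Eif3m siRNA.

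**Figure D2:**
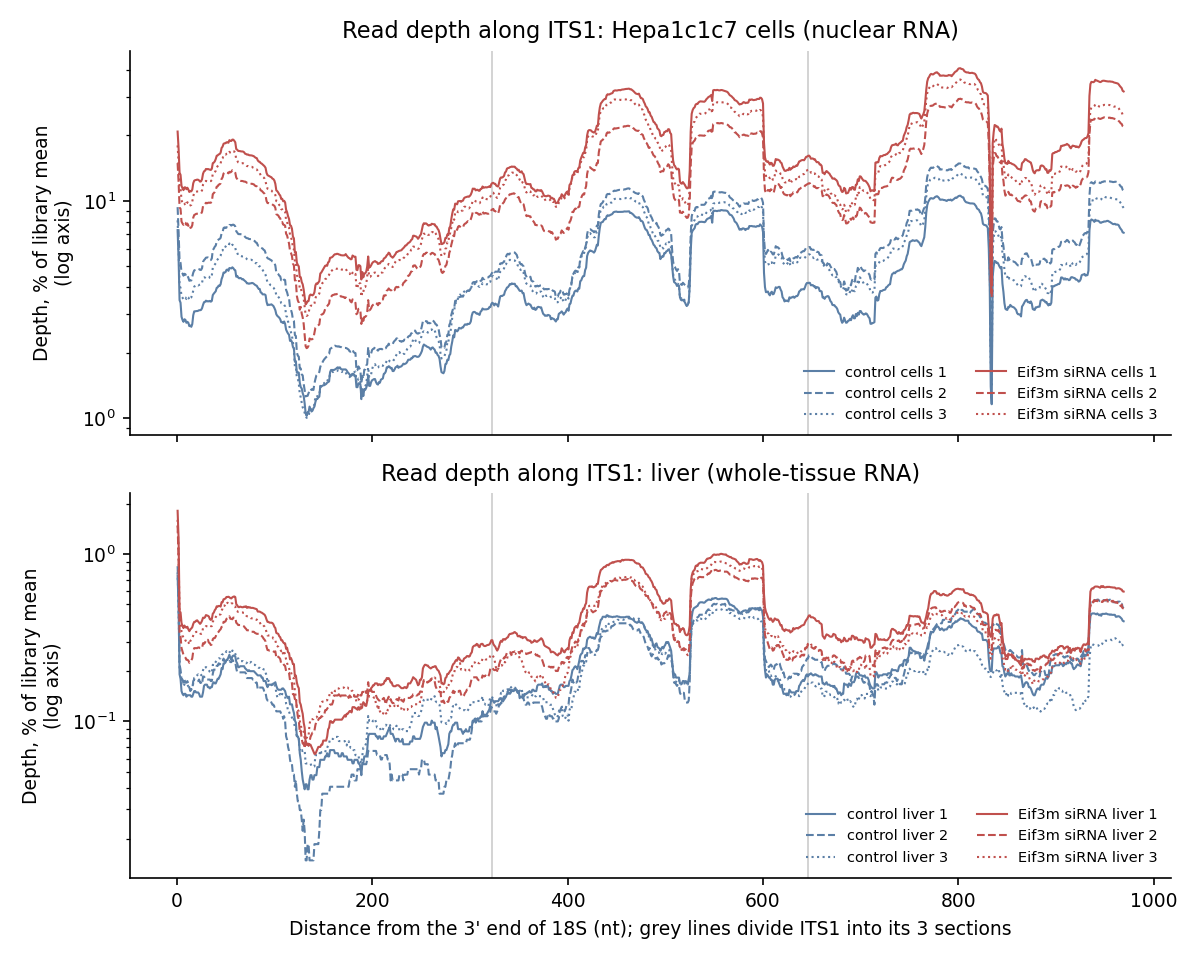
Read depth at each ITS1 position as a percent of the library's mean depth (log axis) against the distance from the 3′ end of 18S (nt), in cells (top) and liver (bottom), 1 line per library; grey lines divide ITS1 into 3 sections of 323 nt. In cells all Eif3m siRNA lines lie above all control lines; in liver the lines meet in the 3′ section.

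A set of 5 single-nucleotide edges inside ITS1 is described here, chosen after their values were seen as the largest steps between neighbouring positions in the mean of all libraries, leaving out the shoulder of 18S at the start of ITS1, where depth fell by more. At 6408 depth rose by 0.53 to 0.85 (log2) in all 12 libraries, at 6597 by 0.19 to 0.43, and at 6816 by 0.48 to 0.71. At 6483 it fell by 0.53 to 0.81 in all of them. The edge at 6717 was different: depth rose there by 1.95 to 2.18 in the 6 cell libraries and by 0.05 to 0.37 in the 6 livers. It closes a notch only a few nucleotides wide, 833 nt into ITS1. Depth at 6715 and 6716 was 19.6%, 20.3% and 18.5% of that of the flanks (10 nt on each side, 3 nt away) in control cells 1 to 3. After Eif3m siRNA it was 17.4%, 19.8% and 17.6% in cells 1 to 3. The values of the siRNA groups overlapped in cells. In control livers the values were 69.3%, 96.1% and 90.7%, and in Eif3m siRNA livers 75.2%, 74.5% and 73.7%, so no liver came near the cells. Across the whole reference, 10 places had a depth under 50% of their flanks in all 6 cell libraries; this was the 1 place in ITS1, and 7 of the 10 were under 50% in all 6 livers too.

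The next comparison asked where along ITS1 the depth changed. After division by the summed depth of each library, limma was fitted on log2(scaled depth + 1) of 51-nt segments over the whole reference, with Benjamini-Hochberg adjustment over all of them. Neighbouring segments share reads and the spacers of a library move together, so the adjusted p-values are smaller than 3 libraries per group warrant. In cells, 19 of 19 ITS1 segments were higher after Eif3m siRNA, against 50.8% of all 262 segments tested. The changes ran from 1.36 to 1.51 with a median of 1.44, against a median of 0.46 over all segments. The first segment after 18S rose by 1.41 ± 0.24 and the last, segment 19 (6801 to 6851), by 1.50 ± 0.19. The largest change was that of segment 17 (6699 to 6749), at 1.51 ± 0.21, and the smallest were those of segments 7 (6189 to 6239) and 4, at 1.36 ± 0.25 and 1.36 ± 0.26. The changes thus spanned less than the SE of a single segment. At single positions, all 3 Eif3m siRNA libraries exceeded all 3 controls at 969 of 969 ITS1 positions, against 51.8% of all positions. The same was seen at 100% of positions in ITS2 and the 3′ETS and at 99.2% in the 5′ETS. It was not confined to spacers, since it held at 153 of 153 positions of 5.8S. In 18S it held at 7.19% of positions and in 28S at 0.615%. The other spacers moved with ITS1 in cells: 20 of 20 segments of ITS2 (median 1.39), 77 of 78 of the 5′ETS (median 1.50) and 10 of 10 of the 3′ETS (median 1.48) were higher.

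In liver, 17 of 19 ITS1 segments were higher after Eif3m siRNA, against 53.2% of the 250 segments tested. The changes ran from 0.33 to 1.06 with a median of 0.85, against 0.18 over all segments. The largest were near the 5′ end, in segments 4 and 6 (6138 to 6188), at 1.06 ± 0.26 and 1.06 ± 0.25. The first segment rose by 0.97 ± 0.21. In segment 4 the scaled depth was 0.0652%, 0.0489% and 0.0777% of the library mean in control livers 1 to 3, against 0.120%, 0.143% and 0.145% in the livers given Eif3m siRNA, with no overlap. The smallest changes were near the 3′ end, in segments 17 and 18 (6750 to 6800), which did not pass the threshold, with 0.33 ± 0.21 and 0.36 ± 0.22 (adjusted p = 0.15 each in limma). In segment 17 the scaled depth was 0.244%, 0.331% and 0.182% of the library mean in the control livers and 0.353%, 0.309% and 0.274% in the Eif3m siRNA livers. Control liver 2 thus stood within the range of the Eif3m siRNA livers there. The last segment rose by 0.44 ± 0.19 (adjusted p = 0.035), although its libraries overlapped. The count of higher segments was 14 of 19 without control liver 3 (46.6% of all segments) and 18 of 19 without control liver 2 (53.4%). In liver too, other spacers held higher segments: 65 of 75 in the 5′ETS (median 0.87) and 14 of 20 in ITS2 (median 0.45). Of the 3′ETS only 1 segment passed the depth filter, and it was not called. Higher segments were not confined to spacers: 36 of 36 segments of 18S were higher, by a smaller median of 0.18. In 28S, 0 of 92 were higher and 46 lower.

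**Figure D3:**
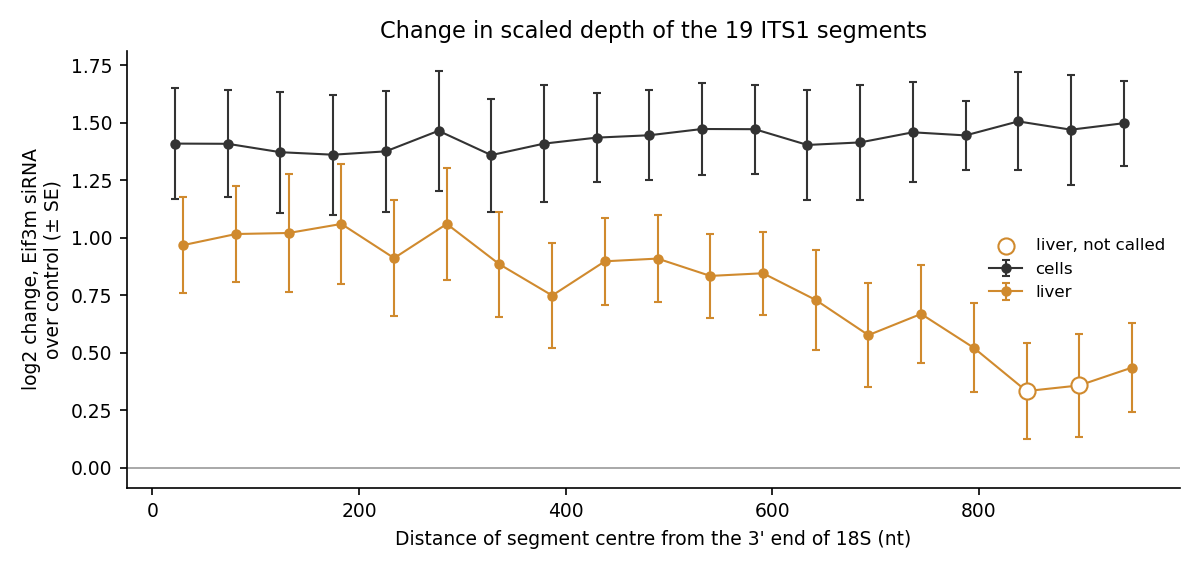
Fitted change after Eif3m siRNA (log2, ± SE, 3 against 3 libraries) of the 19 segments of ITS1 against the distance of the segment from the 3′ end of 18S (nt), in cells and in liver, offset sideways for legibility; open circles mark liver segments that did not pass the threshold. Changes in cells lie between 1.36 and 1.51 throughout, and those in liver between 1.06 near 18S and 0.33 near 5.8S.

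Position by position, all Eif3m siRNA livers exceeded all control livers at 784 of 969 ITS1 positions, or 80.9%, against 49.2% of all positions. These were 323 of 323 positions in the 5′ section of ITS1 (5883 to 6205), 313 of 323 in the middle section (6206 to 6528) and 148 of 323 in the 3′ section (6529 to 6851). The longest run with overlap was of 122 nt, from 6675 to 6796. Without control liver 2, 947 of the 969 positions had no overlap, and without Eif3m siRNA liver 3 the count was 886; without control liver 3 it was again 784. Leaving out 1 of the livers other than control liver 2 and Eif3m siRNA liver 3 gave 784 to 795. Any library left out can only remove overlap, over the whole reference too, and the matching shares over all positions are not given here. Within ITS1, the overlap was removed mostly by leaving out control liver 2 or Eif3m siRNA liver 3. The same count was 91.5% in 18S, 80.0% in the 5′ETS, 68.4% in ITS2 and 21.8% in the 3′ETS, so it was not highest in ITS1. The 3′ETS was shallow in liver, where only 1 of its segments passed the depth filter.

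The change was smaller in liver than in cells in all 19 segments as fitted, with differences from −0.30 to −1.17. In the test of the difference itself, limma over all libraries, 8 of 19 segments had a smaller change in liver, against 30.2% of all 262 segments. A larger change in liver was called in 0 of 19, also at an unadjusted p under 0.05, against 34 of all 262, all in 18S. The 8 were segments 11, 12 and 14 to 19; whether the difference is larger there than near 18S was not tested. Their differences ran from −0.63 to −1.17, and the segment that differed most was segment 17, at −1.17 ± 0.30 (adjusted p = 0.0015). In the first segment after 18S the difference was −0.44 ± 0.30 (adjusted p = 0.24), and in segment 4 it was −0.30 ± 0.36. The other spacers shared the smaller change in liver: 20 of 20 segments of ITS2 (median difference −0.91), 33 of 78 of the 5′ETS (median −0.64) and 6 of 10 of the 3′ETS (median −1.01) were called lower in the same fit. In the fit on livers alone, only 1 segment of the 3′ETS passed the depth filter. The count for ITS1 depends on single libraries: it was 5 of 19 without control liver 2 (20.6% of all segments), and 4 of 19 without control cells 1 (14.1% of all segments), Eif3m siRNA cells 1 or 3 (17.2% and 17.9%), control liver 1 (19.8%), or Eif3m siRNA liver 2 or 3 (19.8% and 19.1%). In these fits the share of ITS1 segments was near the background. It was 3 of 19 with median-of-ratios scaling (9.54% of all segments).

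To look at the shape of the profile alone, libraries were scaled to their own ITS1 depth. This scale lowers every region that rose less than ITS1, so shares over all segments are no background for a change of shape. In cells, 0 of 19 segments were higher and 0 lower, with 0 at an unadjusted p under 0.05 in limma, and the changes lay between −0.08 and 0.06; of all segments, 3.44% were called higher and 52.3% lower on this scale. In liver, 0 of 19 were higher and 3 lower, against 2.29% and 59.5% of all segments. The 3 were the last of ITS1, segments 17 to 19, with −0.42 ± 0.14 (adjusted p = 0.0072), −0.39 ± 0.16 (adjusted p = 0.023) and −0.31 ± 0.13 (adjusted p = 0.031). They rest on control liver 2: without it, 0 of 19 were lower (56.1% of all segments). Without control liver 1, Eif3m siRNA liver 1 or Eif3m siRNA liver 3, 1 was lower (58.4%, 55.7% and 55.3% of all segments). Without control liver 3, 4 were lower and 5 were higher (60.7% and 3.05% of all segments).

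The balance of the ends was also taken as a single ratio, the mean depth of the 5′ section over that of the 3′ section. It was 0.456, 0.450 and 0.436 in control cells and 0.420, 0.429 and 0.438 in Eif3m siRNA cells, so the 3′ section was the deeper one throughout and the groups overlapped slightly. The change was −0.06 ± 0.03 (log2, exact permutation p = 0.2). In control livers the ratio was 0.457, 0.338 and 0.726, and in Eif3m siRNA livers 0.680, 0.625 and 0.787. The control livers spread more widely than any other group, and control liver 3 lay among the Eif3m siRNA livers. The liver change was 0.52 ± 0.33 (exact permutation p = 0.3), and it was 0.82 (p = 0.1) without control liver 3 and 0.27 (p = 0.5) without control liver 2 in the same exact test. Over both systems it was 0.23 ± 0.17 (exact permutation p = 0.33, adjusted 0.33).

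**Figure D4:**
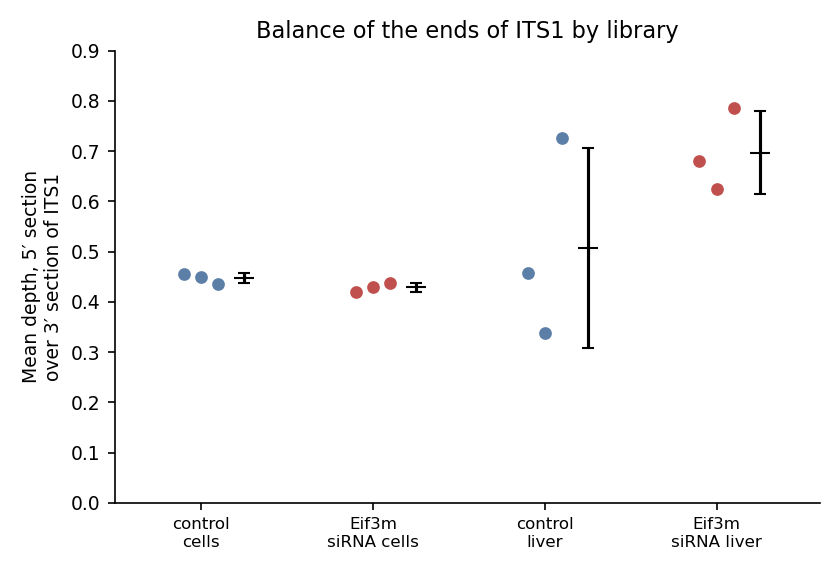
Mean depth of the 5′ section of ITS1 over that of its 3′ section, by group; points are libraries and bars show the mean ± SD of 3. Cells lie between 0.420 and 0.456 with either siRNA, whereas control livers range from 0.338 to 0.726 and overlap the Eif3m siRNA livers.

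A further comparison set ITS1 against the other spacers of the same libraries, which cancels sequencing depth. ITS2, the spacer between 5.8S and 28S, is handled in the large-subunit branch, and the 5′ETS is handled with the small-subunit branch. ITS1 over ITS2 in mean depth was 0.541, 0.543 and 0.572 in control cells and 0.584, 0.573 and 0.579 in Eif3m siRNA cells, nearly touching. Control livers had 0.434, 0.387 and 0.439, well below the 0.532, 0.491 and 0.536 of the Eif3m siRNA livers. The ratio in liver was thus 1.24-fold higher after Eif3m siRNA, a change of 0.31 ± 0.07 on the log2 scale (exact permutation p = 0.1). It was 0.25 without control liver 2 and 0.34 without control liver 3. In cells the change was 0.07 ± 0.03 (exact permutation p = 0.1), and with median depths it was 0.0061 (p = 1 in the same exact test). Over both systems it was 0.19 ± 0.04 (exact permutation p = 0.005, adjusted 0.01), with 0.16 without control liver 2 and 0.20 without control liver 3. With median in place of mean depths it was 0.12 and no longer past the threshold (adjusted p = 0.1). In the controls, ITS1 over ITS2 was 0.552 ± 0.018 in cells and 0.420 ± 0.029 in liver (exact permutation p = 0.1).

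The 3 sections were then set against ITS2 one by one, a division added after the data were seen. In liver the 5′ section was at 0.228, 0.174 and 0.304 of the depth of ITS2 in controls and at 0.343, 0.307 and 0.377 after Eif3m siRNA, a change of 0.57 ± 0.25. The middle section was at 0.576, 0.471 and 0.593 in controls and at 0.748, 0.675 and 0.753 after Eif3m siRNA, a change of 0.41 ± 0.12. In both sections the groups did not overlap (exact permutation p = 0.1 each). Without control liver 2 these changes were 0.37 and 0.31, and without control liver 3 they were 0.77 and 0.48. The 3′ section was at 0.499, 0.515 and 0.419 against 0.504, 0.491 and 0.479, a change of 0.05 ± 0.09 with full overlap (exact permutation p = 0.9), or 0.10 without control liver 2 and −0.04 without control liver 3. In cells the changes were 0.03, 0.07 and 0.09 from the 5′ section to the 3′ section. In the sums scaled to the library, the liver changes were 1.02 ± 0.17, 0.86 ± 0.12 and 0.49 ± 0.22 from the 5′ section to the 3′ section.

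**Figure D5:**
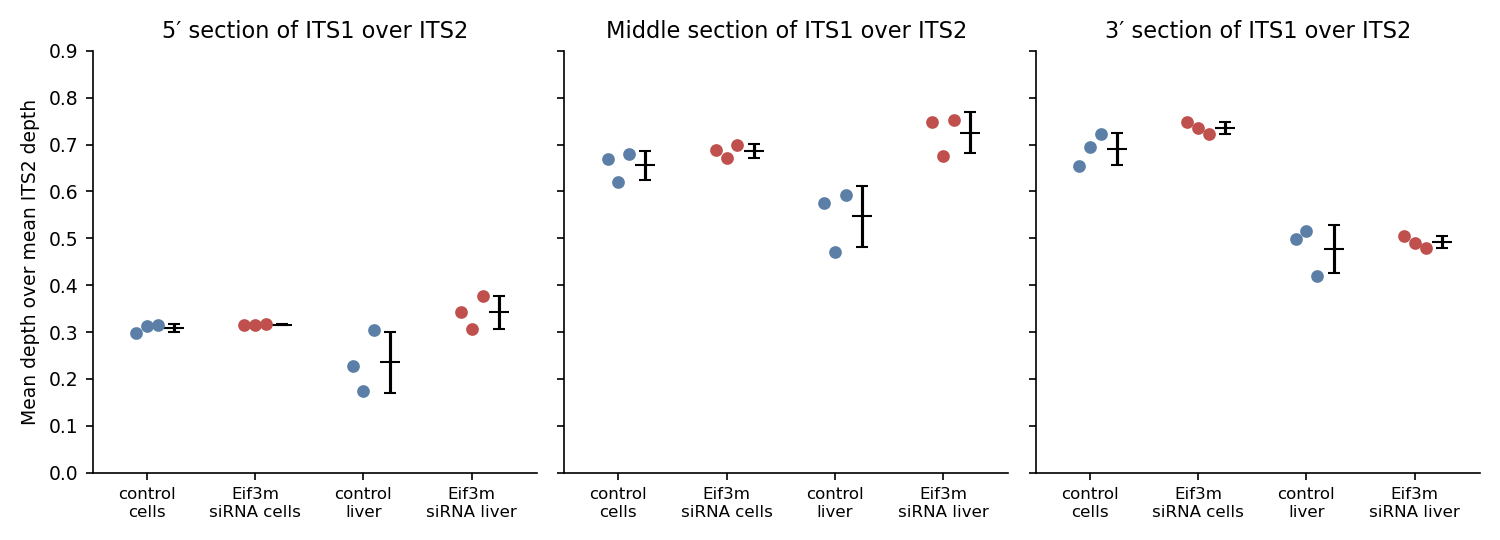
Mean depth of each section of ITS1 over the mean depth of ITS2, by group; points are libraries and bars show the mean ± SD of 3. In liver the Eif3m siRNA libraries lie above the controls in the 5′ and middle sections and among them in the 3′ section, where the change was 0.05 ± 0.09.

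ITS1 over the 5′ETS did not separate the groups. The mean ratio was 0.868 ± 0.015 in control cells and 0.839 ± 0.018 in Eif3m siRNA cells, and 1.15 ± 0.06 and 1.12 ± 0.08 in the livers (SD, n = 3 each). The changes were −0.05 ± 0.02 in cells (exact permutation p = 0.2) and −0.04 ± 0.08 in liver (p = 0.7 in the same test). Over both systems the change was −0.04 ± 0.04 (exact permutation p = 0.28, adjusted 0.33), but −0.16 with median depths (adjusted p = 0.01). Control cells had the lower ratio, 0.868 against 1.15 in control livers (exact permutation p = 0.1). Against the 5′ETS the 3′ section of ITS1 was lower in all Eif3m siRNA livers than in all control livers, by −0.30 ± 0.10 (exact permutation p = 0.1), while the 5′ section changed by 0.22 ± 0.25 with overlap; the 3′ section change was −0.23 without control liver 2 and −0.40 without control liver 3, and that of the 5′ section 0.04 and 0.42. In cells it was the 5′ section that was lower against the 5′ETS in all Eif3m siRNA libraries than in all controls, by −0.09 ± 0.02 (exact permutation p = 0.1), and the 3′ section overlapped at −0.03 ± 0.03 (exact permutation p = 0.5). ITS1 over the 3′ETS changed by −0.05 ± 0.05 in cells and 0.19 ± 0.17 in liver (exact permutation p = 0.4 each). In control livers ITS1, at 59.7 to 87.4 reads per position, was 8.54 to 12.4 times as deep as the 3′ETS. The liver ratio thus rests on few reads over the 3′ETS.

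The borders of ITS1 with the mature regions differed between the systems as well. Across the end of 18S, the first 20 nt of ITS1 were compared in depth with the last 20 nt of 18S. They stood at 17.5% in control cells and 23.2% in Eif3m siRNA cells, against 7.61% and 7.73% in the livers. These last 20 nt were far shallower than 18S as a whole. Against all of 18S, ITS1 stood at 1.95% in control cells and 0.0812% in control livers. In the livers the first 20 nt also hold the shoulder of 18S. The border values therefore do not give the change of ITS1 against 18S, which was 0.58 ± 0.12 (log2) in liver. Towards 5.8S, ITS1 as taken here stops at position 6851, so the 25 nt directly before 5.8S are not in the comparison. The depth of its last 20 nt was 27.1% of that of the first 20 nt of 5.8S in control cells. In Eif3m siRNA cells it was 50.6%, and in control and Eif3m siRNA livers 2.04% and 2.64%. ITS1 thus stood higher against both of its mature neighbours in cells than in liver.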

How the data were processed

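rRNA read depth was analysed in 12 libraries in 4 groups. The authors deposited 1 table of coverage signal, the whole number of reads over each of 13400 positions, not scaled to library size. The submitters' processing notes list BWA 0.7.12 and SAMtools 1.3. Not given in the sources used here are the read length, the name of the reference, the options and whether duplicates or reads from repeated rRNA genes were kept; such choices scale depth unevenly along the precursor, and reads that span an edge blur it. The 85 empty cells, 0 of them in ITS1, were read as 0. Columns were matched to samples by title, with 0 unused, and 0 of 66 pairs of columns were identical.

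Region edges came from steps of mean log2(depth + 1) between windows of 20 nt. The members and the lists were chosen with earlier results of these data known. Single values per library were compared on the log2 scale by exact two-sided permutation tests. Segments of 51 nt were laid from the start of ITS1 over the whole reference. Those of mean scaled depth 10 or more were fitted in limma 3.58.1 (R 4.3.3, lmFit, eBayes with trend, pseudocount 1, Benjamini-Hochberg threshold 0.05). A prior run on simulated data drew segments independently, so it does not bear on segments that share reads and move together. Named segments were the 2 largest and 2 smallest changes in each system, the first and last, the deepest and shallowest, and those not called. Named positions were the highest and lowest in each group. In cells, same-numbered libraries did not deviate together along ITS1 (r −0.79 to 0.08). In liver r was −0.06 to 0.37 for the same number, against −0.44 to 0.21 for unlike numbers, which does not settle whether livers were paired. Replicate numbers were not used as pairs in the main tests, and values with a replicate block are given among the alternatives. No library totals beyond the depth are given, so intervals cover the spread between libraries.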

Additional observations from a re-analysis of the deposited data

Results flagged for a closer look

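The change in the ITS1 share was smaller in liver than in cells, by a test of the difference itself in limma: −0.69 ± 0.22 (log2, adjusted p = 0.018).

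The same kind of test called 8 of 19 segments of ITS1, each with a smaller change in liver, against 30.2% of all segments and 20 of 20 in ITS2. In the middle of the spacer the differences were −0.64 in segment 11 and −0.63 in segment 12. Towards 5.8S they were −0.84 in segment 14, −0.79 in segment 15, −0.92 in segment 16, −1.17 in segment 17, −1.11 in segment 18 and −1.06 in segment 19. These segments are neighbours that share reads, so they are not 8 separate findings, and the part of RNA fraction, dose and time in them cannot be told apart from that of the cell source.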

How the results depend on the processing

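Of 297 alternatives, 185 gave a tested value, of which 171 kept their direction and side of the threshold. A count was given by 112, of which 96 stayed within 1.5 times the reported one. Among these, position counts can only rise with 1 library left out. The 969 of 969 in cells thus could not move then, and the 784 of 969 in liver could not leave that range. With 3 libraries per group a p of 0.1 within a system says nothing about stability. With the 7 regions in limma, the ITS1 share passed the threshold in cells (1.44, adjusted p = 0.00074) and liver (0.76, adjusted p = 0.0036). With a replicate block, the share over both systems (1.10) and ITS1 over ITS2 (0.19) had an adjusted exact permutation p of 0.0625 each, and the difference in share between systems (−0.69) an adjusted p of 0.066 in limma; 6 pairs allow no p below 0.03125. ITS1 over ITS2 for both systems was 0.12 with median depths (adjusted p = 0.1) and 0.068 for the 3′ section alone (adjusted p = 0.31). ITS1 over the 5′ETS, weakly negative, was −0.16 with median depths over both systems (adjusted p = 0.01). It turned positive for the 5′ section (0.22 in liver, 0.067 over both systems) and the middle section (0.065 in liver, 0.0066 over both systems), and with 1 library left out it ran from −0.091 to 0.016 in liver, the positive value without Eif3m siRNA replicate 2; no such value passed a threshold. In cells the 5′ section over the 3′ section was 0.021 with median depths. Segments with a smaller change in liver were 68.4% of the 19 with a pseudocount of 10 (46.2% of all segments), 21.1% with a replicate block (17.6% of all), 15.8% with median-of-ratios scaling (9.54% of all), and 21.1% to 63.2% with 1 library left out (14.1% to 39.7% of all). On the ITS1 scale in liver, 10.5% were higher with a replicate block (6.87% of all segments). Leaving out 1 library gave 0% to 26.3% higher (0.38% to 5.73% of all) and 0% to 21.1% lower (55.3% to 60.7% of all). The cause of these shifts was not tested. Depth limits the livers most: single positions hold as few as 4 reads, and neighbouring positions share them.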
